A study of Homo sapiens with 8 samples.

Results

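Apolipoproteins are the protein coat of lipoprotein particles, and the microsomal triglyceride transfer protein loads lipid onto one of them inside the hepatocyte. The 10 genes described here are the apolipoprotein genes APOA1, APOA2, APOA5, APOB, APOC1, APOC3, APOE, APOH and APOM, and MTTP, which encodes the transfer protein. They were chosen by name among the 60230 genes of the count table, and all 10 are among the 13404 genes that passed the filter on low counts. RNA was sequenced from HepG2 cells, an established human hepatocellular carcinoma line, in a derivative that overexpresses the drug-metabolizing enzyme CYP3A4 in every group, controls included. Cells seeded 24 h earlier were exposed for 24 h to compound 4, 5 or 6, each at its own IC50, or to 0.2% DMSO, in 4 groups of 2 samples (8 samples altogether). The labels number the 2 samples of a group as day 1 and day 2, here called replicates 1 and 2, and nothing says whether they came from separate cultures, so the spread between them may be technical.

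Compounds 4, 5 and 6 are antioxidants added to plastics, and all are bisphenols. In compounds 4 and 6 a methylene bridge joins the rings, which carry tert-butyl groups in compound 4 and cyclohexyl groups in compound 6. Compound 5 has an ethylidene bridge and more tert-butyl groups. Since each was given at its own IC50, molar doses were not matched between compounds, and the size of any difference is not given here.

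Very-low-density lipoprotein (VLDL) is built in the endoplasmic reticulum, where the transfer protein adds triglyceride to apolipoprotein B, the large scaffold of the particle. High-density lipoprotein (HDL) is built around apolipoproteins A-I and A-II. Small exchangeable apolipoproteins such as C-I, C-III, A-V and E move between particles in plasma and set how fast triglyceride is hydrolysed and remnants are taken up.

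The libraries held between 9472261 and 13308975 counts on genes, so that 3 counts, the floor used here, stood for 0.234 to 0.312 CPM (counts per 1000000 counts of the library after TMM scaling). The 10 genes together took 1.3% and 1.43% of the counts in DMSO, 1.16% and 0.969% after compound 4, 1.26% and 1.16% after compound 5, and 1.41% and 1.27% after compound 6. Without APOB, the other 9 took 0.719% and 0.654% in DMSO, 0.507% and 0.681% after compound 4, 0.436% and 0.493% after compound 5, and 0.571% and 0.503% after compound 6. Replicates differed beyond counting noise, with a chi-square, divided by its degrees of freedom, of 5.51 (DMSO), 17.2 (compound 4), 6.47 (compound 5) and 9.07 (compound 6). CYP3A4 itself ranged from 170.5 to 421 CPM and was higher with compound 5 (log2 fold change 0.97, edgeR adjusted p = 7.24e-04). The hepatocyte character of the cells was checked with 12 markers, all detected, whose sum took 3.6% to 3.93% of the counts in DMSO, 2.69% to 3.12% with compound 4, 2.61% to 2.8% with compound 5 and 2.74% to 3.32% with compound 6. Of 5 enterocyte markers, chosen because the intestine is the other source of apolipoproteins B and A-I, SI and LCT were at 0 in all samples and the sum stayed between 0.171 and 1.56 CPM. The immune marker PTPRC and the bile duct marker CFTR were also at 0, but other markers of their lists were expressed. The bile duct markers KRT19, SOX9 and EPCAM averaged 82, 148.5 and 199 CPM in DMSO. CD68, a marker of other liver cells, averaged 32.9 CPM in DMSO.

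Liver transcription factors act through short sites in promoters and enhancers. RefSeq windows (GRCh38.p14) of 250 bases before a start were found for 7 of the 10 genes, APOA2, APOA5, APOC1, APOE, APOH, APOM and MTTP. They were searched on both strands for 8 motifs, none of which contains another. These were the TATA box as TATAAA, the CCAAT box, the half-site of nuclear receptors as AGGTCA, a part of the HNF4 site as CAAAGT, the HNF1 half-site as GTTAAT, a sterol regulatory element as TCACNCCAC, an E box as CACGTG and a cyclic AMP response element as TGACGTCA. The stretches below are those of APOA5, MTTP and APOH, which were lower after treatment in the values that follow, and of APOA2, which was not, for comparison. Capitals mark a match on either strand, and annotated exon bases were left out except for the 30 bases of MTTP, which lie in the first exon of a longer annotated transcript. The stretches are chr11:116792421-116792670 (minus strand) for APOA5, chr4:99574768-99574797 (plus strand) for MTTP, chr17:66229423-66229665 (minus strand) for APOH and chr1:161223632-161223878 (minus strand) for APOA2.
APOA5: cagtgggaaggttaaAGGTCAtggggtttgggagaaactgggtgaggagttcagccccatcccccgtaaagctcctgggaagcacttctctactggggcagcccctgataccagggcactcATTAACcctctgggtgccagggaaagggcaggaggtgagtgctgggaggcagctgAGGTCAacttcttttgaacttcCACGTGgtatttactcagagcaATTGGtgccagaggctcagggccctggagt
MTTP: ggagtcTGACCTttccccaaagataaacat
APOH: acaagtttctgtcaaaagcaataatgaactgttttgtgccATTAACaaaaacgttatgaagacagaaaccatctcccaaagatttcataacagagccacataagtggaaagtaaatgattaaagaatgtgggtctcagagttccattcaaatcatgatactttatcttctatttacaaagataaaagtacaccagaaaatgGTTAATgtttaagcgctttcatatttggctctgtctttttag
APOA2: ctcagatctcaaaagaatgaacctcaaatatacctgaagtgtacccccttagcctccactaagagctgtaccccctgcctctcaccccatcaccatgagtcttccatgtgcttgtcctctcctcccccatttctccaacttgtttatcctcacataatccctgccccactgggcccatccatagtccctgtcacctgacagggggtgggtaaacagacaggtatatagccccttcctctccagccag

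The half-site AGGTCA occurred in the windows of APOA5 and MTTP, and in 12.1% of all 35116 windows of this length. In APOA5 it stood 235 to 230 and 74 to 69 bases before the outer start, and in MTTP on the opposite strand 50 to 45 bases before the downstream start. GTTAAT occurred in APOH, 210 to 205 bases before the start on the opposite strand and 49 to 44 bases before it on the same strand, and once in APOA5, against 6.23% of all windows. CCAAT occurred in windows of APOA5, APOE and MTTP (32% of all windows), CACGTG in APOA5 (6.34%) and TATAAA in MTTP (10.7%). CAAAGT (10.3% of all windows), TCACNCCAC (0.883%) and TGACGTCA (1.65%) had no match, and the windows of APOA2, APOC1 and APOM held none of the 8 motifs. A match did not go with a lower value in every gene, since APOM, without a match, was lower with compound 5 and APOE, with CCAAT, was not called with any compound. A match is a description of the letters and not of a bound site.

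The levels of the genes differed widely in untreated cells. Levels between genes are given per length, as CPM divided by the kilobases of the longest annotated transcript, in the DMSO samples. APOA1 was the most abundant at 2567 and 2244 CPM per kb and ranked 10 of 13325 genes. APOA2 followed at 1452 and 1231, APOH at 1024 and 1056, APOE at 673 and 581, and APOB at 402 and 529. In that part of the order no neighbours overlapped. The less abundant genes were APOC1 at 218 and 188, APOC3 at 88.8 and 66.8, APOM at 75.8 and 61.4, APOA5 at 45.1 and 40.2, and MTTP at 37.8 and 34.2 CPM per kb. APOC3 and APOM overlapped, and every other pair of neighbours was separated in these 2 samples. The length of 4092 bases behind the MTTP value is that of its longest transcript, and with the median transcript length MTTP stood at 261 CPM per kb, between APOC1 (275) and APOM (88.1). By CPM alone, without length, APOB ranked 6 of all tested genes.

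**Figure D1:**
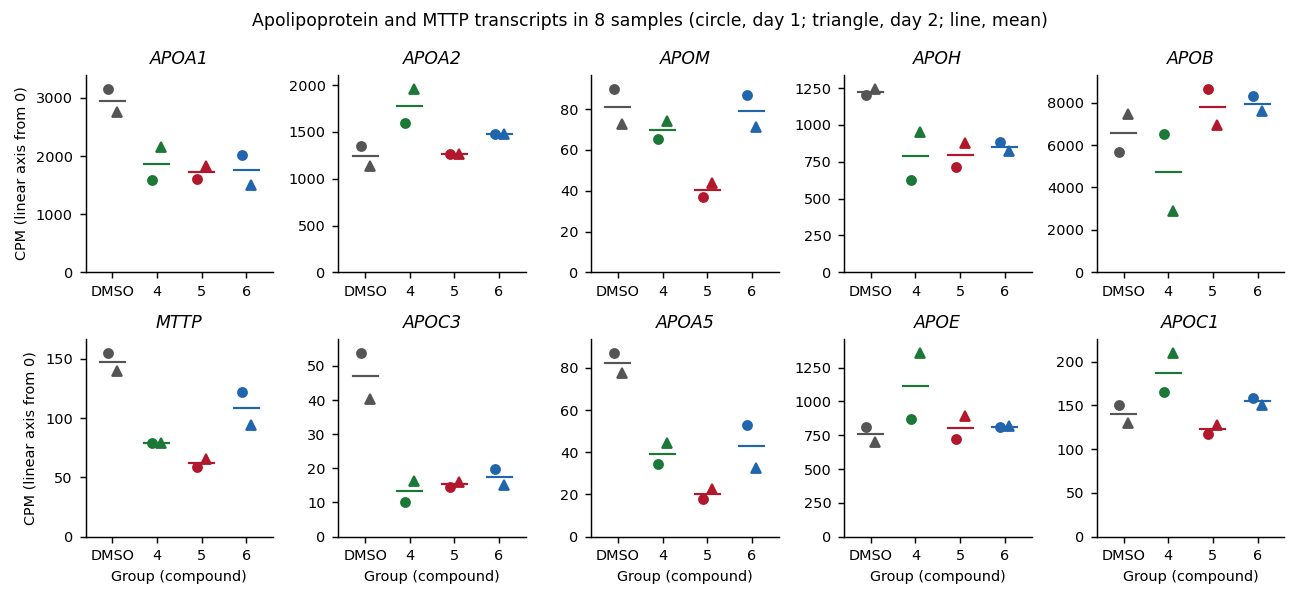
CPM of each of the 10 genes (vertical axis, linear and starting at 0) in the DMSO group and with compounds 4, 5 and 6, with a circle for replicate 1 (day 1), a triangle for replicate 2 (day 2) and a line at the mean of both. APOC3 lies between 10.1 and 19.9 CPM in all treated samples against 40.4 and 53.7 CPM in DMSO, while the compound 4 replicates of APOB lie at 6521 and 2889 CPM.

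Against DMSO, compound 4 lowered APOA1, APOC3, APOH, APOA5 and MTTP and raised APOA2. Compound 5 lowered APOA1, APOC3, APOH, APOM, APOA5 and MTTP and raised none of the 10. Compound 6 lowered APOA1, APOC3 and APOA5. The 6 genes called with compound 4 stand beside 11.9% of all tested genes called in either direction (5.42% lower and 6.5% higher). The 6 called with compound 5 stand beside 28.1% in either direction and 14.2% lower, and the 3 called with compound 6 beside 4.4% in either direction and 1.6% lower. The median log2 fold change of the 10 genes was -0.56, -0.70 and -0.24 with compounds 4, 5 and 6, against -0.03 to 0.00 over all tested genes. In a bulk sample, fewer cells that express a gene and less RNA per cell cannot be told apart. The 3 comparisons share the same DMSO samples.

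The call rule was a Benjamini-Hochberg adjusted p under 0.05 over the 13404 genes in edgeR's quasi-likelihood test. For compound 5 the scaling moved the balance of all called genes, with 49.3% of them higher under TMM against 36.6% for upper-quartile scaling and 33.3% with library size alone, where the median of all genes was -0.12 and -0.14, while the 6 members were called, all lower, under each. A replicate block left 6, 6 and 1 of the 10 genes called. Leaving out a DMSO replicate left 3 (replicate 1) or 2 (replicate 2) genes called with compound 4, 4 or 5 with compound 5 and 0 in both cases with compound 6, for which 0 were also left without compound 6 replicate 2 and 1 without compound 5 replicate 1.

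**Figure D2:**
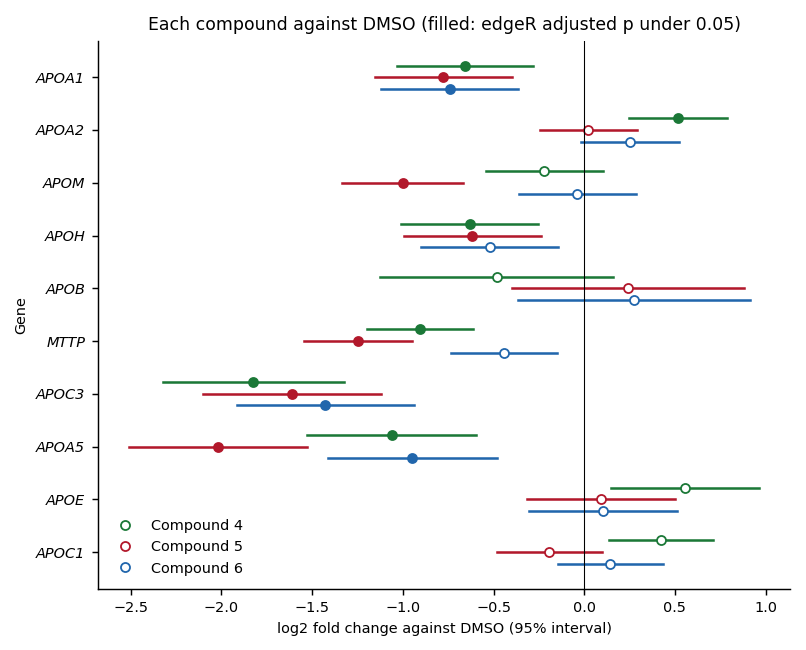
Log2 fold change against DMSO (horizontal axis) for the 10 genes (vertical axis), with the 95% interval of the edgeR fit as a line and one colour for each compound; filled points have an edgeR adjusted p under 0.05. APOC3 and APOA5 lie left of 0 with all compounds, APOM only with compound 5 among the filled points, and APOB has the widest intervals.

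APOA1 (ENSG00000118137, chromosome 11, 116835751 to 116837950, minus strand, GRCh38) encodes the main structural protein of HDL and the activator of the cholesterol-esterifying enzyme LCAT. It had 3150 and 2753 CPM in DMSO, 1589 and 2154 after compound 4, 1608 and 1836 after compound 5, and 2018 and 1510 after compound 6. All treated samples were below both DMSO samples. It fell by 36.6% with compound 4 (log2 fold change -0.66, SE 0.17, edgeR adjusted p = 0.0312), fell by 41.6% with compound 5 (-0.78, SE 0.17, adjusted p = 0.00757) and fell by 40.2% with compound 6 (-0.74, SE 0.17, adjusted p = 0.0375). With the replicate block the adjusted p for compound 6 was 0.0576. The call for compound 4 was lost without DMSO replicate 1 (adjusted p = 0.169), DMSO replicate 2 (0.0987) or compound 4 replicate 1 (0.103), and that for compound 5 without DMSO replicate 1 (0.0634) or compound 5 replicate 1 (0.0771). For compound 6 the adjusted p was 0.0553 to 0.366 without any one of the DMSO replicates, the compound 5 replicates or compound 6 replicate 2.

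APOA2 (ENSG00000158874, chromosome 1, 161222292 to 161223631, minus strand) encodes the other main HDL protein. Its CPM was 1346 and 1141 in DMSO, 1597 and 1957 after compound 4, 1261 and 1266 after compound 5, and 1481 and 1483 after compound 6. The compound 4 and compound 6 samples were above both DMSO samples, and those of compound 5 lay between them. APOA2 rose by 42.9% with compound 4 (log2 fold change 0.51, SE 0.12, edgeR adjusted p = 0.0213), so that the HDL pair moved in opposite directions. The call was lost without compound 4 replicate 2 (log2 fold change 0.38, adjusted p = 0.0781), without DMSO replicate 2 (0.40, adjusted p = 0.203), and in a fit of the compound 4 and DMSO samples alone (adjusted p = 0.0637). Compound 5 gave 0.02 (95% interval -0.25 to 0.29), which was -0.06 under upper-quartile scaling and -0.08 with library size alone, and compound 6 gave 0.25 (-0.02 to 0.52).

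APOM (ENSG00000204444, chromosome 6, 31652416 to 31658210, plus strand) encodes the HDL protein that carries sphingosine 1-phosphate. It stood at 89.8 and 72.7 CPM in DMSO, 65.2 and 74.3 after compound 4, 37 and 44 after compound 5, and 86.9 and 71.5 after compound 6. Only the compound 5 samples lay apart from DMSO. APOM fell by 50.1% with compound 5 (log2 fold change -1.001, SE 0.15, edgeR adjusted p = 0.00106), and this call held under every scaling, filter and left-out library tried (log2 fold change -1.13 to -0.80, largest adjusted p = 0.0207). With compound 4 the change was -0.22 (95% interval -0.54 to 0.10) and with compound 6 it was -0.04 (-0.36 to 0.28).

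APOH (ENSG00000091583, chromosome 17, 66212033 to 66256525, minus strand) encodes beta-2-glycoprotein I, a phospholipid-binding plasma protein found partly on lipoproteins. Its CPM was 1205 and 1242 in DMSO, 629 and 949 after compound 4, 717 and 878 after compound 5, and 884 and 820 after compound 6. Every treated sample was below both DMSO samples. APOH fell by 35.5% with compound 4 (log2 fold change -0.63, SE 0.17, edgeR adjusted p = 0.0366) and fell by 34.8% with compound 5 (-0.62, SE 0.17, adjusted p = 0.0219), and compound 6 gave -0.52 (SE 0.17, adjusted p = 0.113). The call for compound 4 was lost without DMSO replicate 1 (0.124), DMSO replicate 2 (0.187) or compound 4 replicate 1 (log2 fold change -0.37, adjusted p = 0.101) and in the fit of compound 4 and DMSO alone (0.0645). That for compound 5 was lost without DMSO replicate 1 (0.0846), DMSO replicate 2 (0.106) or compound 5 replicate 1 (0.179). Compound 6 passed in DESeq2 (0.025), without a filter (0.00023) and in the fit of compound 6 and DMSO alone (0.013), as it did without compound 4 replicate 1 (0.0156) or 2 (0.0181).

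Of the genes for VLDL assembly, MTTP was lower and APOB did not pass the test. MTTP (ENSG00000138823, chromosome 4, 99563761 to 99623999, plus strand) had 155 and 140 CPM in DMSO, 78.6 and 78.6 after compound 4, 58.6 and 65.4 after compound 5, and 122 and 94.5 after compound 6. All treated samples lay below both DMSO samples. MTTP fell by 46.6% with compound 4 (log2 fold change -0.91, SE 0.13, edgeR adjusted p = 0.00212) and fell by 57.9% with compound 5 (-1.25, SE 0.13, adjusted p = 2.16e-04). Both calls held under every alternative and every left-out library, where the log2 fold change was -0.97 to -0.83 and -1.35 to -1.14. With compound 6 the change was -0.44 (SE 0.13, 95% interval -0.73 to -0.15, adjusted p = 0.0832), and it passed in DESeq2 (0.049), without a filter (0.0167), after length correction (0.0484) and without compound 6 replicate 1 (log2 fold change -0.61, adjusted p = 0.0259).

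APOB (ENSG00000084674, chromosome 2, 21001429 to 21044073, minus strand) has the longest transcript of the 10 genes, 14121 bases. Its CPM was 5679 and 7468 in DMSO, 6521 and 2889 after compound 4, 8630 and 6920 after compound 5, and 8303 and 7592 after compound 6. The value of 2889 in compound 4 replicate 2 was the lowest of the 8 and below that of replicate 1. The fitted changes were -0.48 (95% interval -1.12 to 0.16), 0.24 (-0.40 to 0.88) and 0.27 (-0.37 to 0.91), none of them called. APOB passed with compounds 4 (edgeR adjusted p = 1.72e-05) and 5 (0.0318) where no filter on low counts was used. The change with compound 4 was nearly the same there (-0.49), with replicates at 6521 and 2889 CPM. That pass rests on another estimate of the spread and is not further support for a change. Without compound 4 replicate 2 the change with compound 4 was 0.00 (edgeR adjusted p = 0.995), and without replicate 1 it was -1.19 (adjusted p = 0.00297).

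Compound 4 replicate 2 differed from replicate 1 in a way that followed transcript length over all genes. The median log2 difference of replicate 2 from replicate 1 ran from 0.24 for genes whose longest transcript was under 1 kb to -0.44 for those over 10 kb. In DMSO it ran the other way, from -0.13 to 0.22, and with compounds 5 and 6 from 0.04 to -0.14 and from -0.09 to 0.08. APOA1, APOA2, APOA5, APOC1, APOC3, APOE, APOH and APOM have longest transcripts of 604 to 1929 bases. All of them were higher in compound 4 replicate 2 than in replicate 1. MTTP was at 78.6 CPM in both, and the long APOB was lower. For the called decreases of APOA1, APOA5, APOC3 and APOH, replicate 2 thus lay closer to DMSO than replicate 1. After a correction of each sample for transcript length, chosen after these values were seen, APOB gave -0.45 with compound 4 (edgeR adjusted p = 0.116), APOA2 0.44 (0.00727), and MTTP, APOC3, APOA5, APOA1 and APOH kept their calls with compound 4. Both compound 5 samples also followed length against DMSO, with medians of -0.17 and -0.14 under 1 kb and 0.30 and 0.17 over 10 kb. With compound 5 the correction moved APOA1 from -0.78 to -0.58, APOH from -0.62 to -0.43, APOM from -1.001 to -0.81 and APOB from 0.24 to 0.05, and all 6 calls were kept. The correction changed the calls of APOC1 and APOE with compound 4, of MTTP with compound 6 and of APOA2 between compounds 5 and 4.

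**Figure D3:**
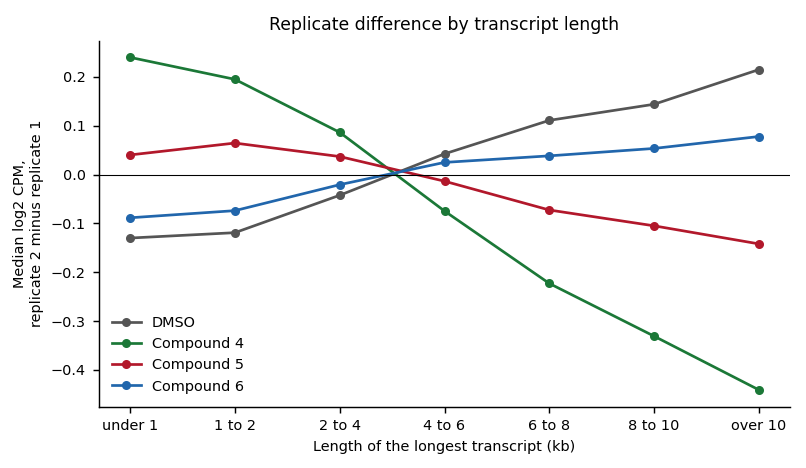
Median difference in log2 CPM, replicate 2 minus replicate 1 (vertical axis), over genes in 7 classes of the length of the longest transcript in kb (horizontal axis), with one line for each group. The compound 4 line falls from 0.24 under 1 kb to -0.44 over 10 kb, the steepest of the 4, and the DMSO line rises from -0.13 to 0.22.

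Among the exchangeable apolipoproteins, APOC3 and APOA5, which act in opposite directions on plasma triglyceride, were both lower with all compounds. APOC3 (ENSG00000110245, chromosome 11, 116829706 to 116833072, plus strand) encodes the inhibitor of lipoprotein lipase and of remnant uptake. It had 53.7 and 40.4 CPM in DMSO, 10.1 and 16.3 after compound 4, 14.6 and 16.1 after compound 5, and 19.9 and 15.2 after compound 6. The highest treated sample had less than the lower of the DMSO samples. APOC3 fell by 71.8% with compound 4 (log2 fold change -1.82, SE 0.23, edgeR adjusted p = 0.00113), fell by 67.3% with compound 5 (-1.61, SE 0.22, adjusted p = 7.04e-04) and fell by 62.8% with compound 6 (-1.43, SE 0.22, adjusted p = 0.0088). It was the only one of the 10 genes called for every compound with the block as well (compound 6: adjusted p = 0.0182). Leaving out any 1 library kept the calls for compounds 4 and 5, and that for compound 6 was lost without DMSO replicate 1 (0.0723), DMSO replicate 2 (0.0818) or compound 6 replicate 2 (0.134).

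APOA5 (ENSG00000110243, chromosome 11, 116789367 to 116792420, minus strand) encodes a scarce plasma protein that promotes triglyceride hydrolysis. Its CPM was 86.9 and 77.6 in DMSO, 34.4 and 44.3 after compound 4, 17.8 and 22.7 after compound 5, and 53.2 and 32.5 after compound 6. Compound 5 gave the lowest values, below those of every other sample. APOA5 fell by 52.1% with compound 4 (log2 fold change -1.06, SE 0.21, edgeR adjusted p = 0.00945), fell by 75.3% with compound 5 (-2.02, SE 0.22, adjusted p = 2.32e-04) and fell by 48.2% with compound 6 (-0.95, SE 0.21, adjusted p = 0.0335, and 0.051 with the block). The call for compound 5 held in every fit with 1 library left out. That for compound 4 was lost without DMSO replicate 1 (0.0658) or 2 (0.0567), and that for compound 6 without DMSO replicate 1 (0.182) or 2 (0.159), compound 5 replicate 1 (0.0526) or compound 6 replicate 2 (0.299).

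APOE and APOC1 lie beside each other on chromosome 19, and neither passed the test with any compound. APOE (ENSG00000130203, 44905754 to 44909393, plus strand) encodes the ligand by which remnants bind the LDL receptor family. It stood at 813 and 702 CPM in DMSO, 869 and 1356 after compound 4, 719 and 893 after compound 5, and 812 and 815 after compound 6. With compound 4 the change was 0.55 (95% interval 0.15 to 0.96, edgeR adjusted p = 0.0779), which became 0.84 (adjusted p = 0.00404) without compound 4 replicate 1 and passed in DESeq2 (0.015), without a filter (3.04e-05) and after length correction (0.0439). With compounds 5 and 6 the changes were 0.09 (-0.32 to 0.50, and -0.01 with library size alone) and 0.10 (-0.31 to 0.51).

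APOC1 (ENSG00000130208, chromosome 19, 44914247 to 44919349, plus strand) encodes an inhibitor of the transfer protein CETP. Its CPM was 150 and 129 in DMSO, 166 and 209 after compound 4, 117 and 127 after compound 5, and 158 and 151 after compound 6. The compound 4 samples were above both DMSO samples and the compound 5 samples below both. The fitted changes were 0.42 (95% interval 0.14 to 0.71, edgeR adjusted p = 0.059), -0.19 (-0.48 to 0.10) and 0.14 (-0.14 to 0.43). The value for compound 4 passed without compound 4 replicate 1 (0.0123), in DESeq2 (0.0307), without a filter (0.012), after length correction (0.0259) and in a table of genes with at least 10 counts in every sample (0.0459). Of the 31-base words in APOC1 transcripts, 37.6% also occurred in transcripts of other genes, mostly in an overlapping unnamed gene (ENSG00000280087) listed at 0.788 to 3.51 CPM. How many reads could be assigned either way is not known from the counts, and the APOC1 values are uncertain to that extent. The share was 7% for APOE and at most 1.2% for the other 8 genes, and the pseudogene APOC1P1 stayed between 0.55 and 1.23 CPM.

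The 3 members called lower with every compound in the edgeR fit, APOA1, APOC3 and APOA5, lie on the same stretch of chromosome 11. MTTP on chromosome 4 and APOH on chromosome 17, whose treated samples were also all below DMSO, were called with compounds 4 and 5 and, in DESeq2, with compound 6 too. APOA5, APOA4, APOC3 and APOA1 lie in this order within 48.6 kb of chromosome 11 (116789367 to 116837950), while APOE, APOC1, APOC4-APOC2 and APOC2 lie within 43.8 kb of chromosome 19 (44905754 to 44949565). The other member of the first group, APOA4, encodes a protein of intestinal lipoproteins and had 10 and 9.7 CPM in DMSO, 4.28 and 5.54 after compound 4, 6.69 and 6.83 after compound 5, and 6.88 and 5.19 after compound 6. APOA4 fell with compound 4 (log2 fold change -1.002, SE 0.21, edgeR adjusted p = 0.0119) and gave -0.54 (0.0673) and -0.72 (0.0766) with compounds 5 and 6, with all treated samples below both DMSO samples. The antisense gene APOA1-AS, which overlaps APOA1, was at 0 counts in all samples, which allows up to 0.312 CPM in the shallowest of them, counting error only.

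Genes within 100 kb of either cluster were listed after the members' values had been seen. On chromosome 11, BUD13 (-0.46, -0.31 and -0.11 with compounds 4, 5 and 6) and SIK3 (-0.23, 0.46 and 0.03) were not called, and ZPR1 was called with compound 5 (0.34, edgeR adjusted p = 0.0406) and gave 0.21 and 0.20 with compounds 4 and 6. On chromosome 19, no gene of the APOE cluster was called with any compound, with APOC2 at -0.01, -0.26 and -0.22. BCAM, an adhesion receptor gene in this window, fell with compound 4 (-0.88, adjusted p = 0.00157) and compound 5 (-1.33, adjusted p = 9.66e-05), and RELB, an NF-kappa-B subunit gene on the other side of the cluster, rose with both (0.90 and 0.78, adjusted p = 0.0296 and 0.0301). The difference between the clusters was not tested.

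**Figure D4:**
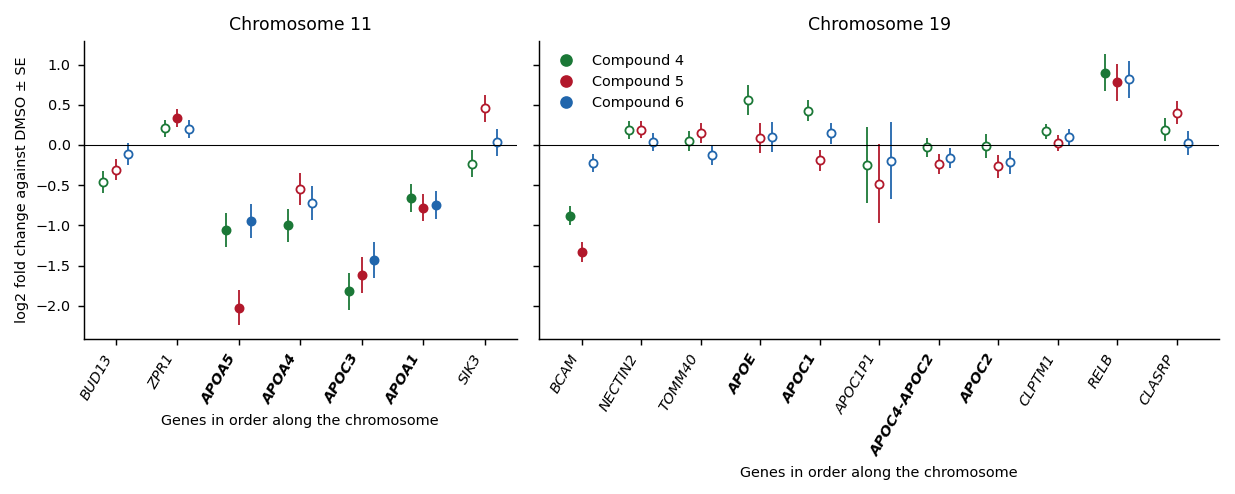
Log2 fold change against DMSO with its SE (vertical axis) for tested named genes within 100 kb of the apolipoprotein clusters of chromosomes 11 and 19, in order along the chromosome (horizontal axis; cluster genes in bold, one colour for each compound, filled where the edgeR adjusted p is under 0.05). APOA5, APOA4, APOC3 and APOA1 lie below 0 with all compounds, at -2.02 to -0.54, while no gene from APOE to APOC2 is filled.

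Compared directly, each at its own IC50 and so not at matched molar doses, compound 5 gave lower APOM and APOA5 than either of the other compounds. Against compound 4, compound 5 was lower for APOA2 (log2 difference -0.49, SE 0.12, edgeR adjusted p = 0.0281), APOC1 (-0.62, SE 0.13, adjusted p = 0.0166), APOM (-0.78, SE 0.15, adjusted p = 0.0117) and APOA5 (-0.96, SE 0.22, adjusted p = 0.0229), 4 of the 10 genes beside 13.9% of all tested genes called in either direction (7.04% lower). After length correction these differences were -0.21 (APOA2, adjusted p = 0.124), -0.32 (APOC1, 0.0373), -0.53 (APOM, 0.0148) and -0.76 (APOA5, 0.0274), so that 3 of the 4 were still called. Against compound 6, compound 5 was lower for APOM (-0.96, SE 0.15, adjusted p = 0.00512), APOA5 (-1.07, SE 0.22, adjusted p = 0.0164) and MTTP (-0.80, SE 0.13, adjusted p = 0.00697), 3 of the 10 beside 9.91% called in either direction (5.16% lower). These calls rest on few samples. The 4 against compound 4 became 0 without compound 5 replicate 1 or 2, 1 without compound 4 replicate 2 and 6 without compound 4 replicate 1, and the 3 against compound 6 became 0 without compound 5 replicate 1 and 1 without compound 6 replicate 1.

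Compounds 4 and 6, which differ in the ring substituent beside the hydroxyl group, differed in none of the 10 genes in edgeR, against 0.0448% of all genes called (6 genes, with 1315 at an unadjusted p under 0.05). DESeq2 also called 0 of the 10 and 72 of all genes, while edgeR without a filter called APOB, APOE and MTTP. The differences of compound 4 from compound 6 had unadjusted p under 0.05 for APOB, APOE and MTTP, at -0.76 (95% interval -1.40 to -0.11), 0.45 (0.04 to 0.86) and -0.46 (-0.76 to -0.17). For APOC3 the interval was -0.92 to 0.12 and for APOA1 it was -0.29 to 0.46. Without compound 4 replicate 1, APOB (-1.46, adjusted p = 0.0107) and APOE (0.74, adjusted p = 0.0425) passed, and without replicate 2 none did.

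Transcripts for proteins that help build and export the VLDL particle moved in both directions with compound 5. Of 17 such genes, all tested, 2 were lower with compound 4 (DGAT2 and PNPLA3), 6 higher and 5 lower with compound 5, and 1 lower with compound 6 (PNPLA3), with list medians of -0.07, -0.14 and -0.05, beside 11.9%, 28.1% and 4.4% of all tested genes called. PNPLA3, a lipid droplet acylhydrolase, was at 23.2 and 28.3 CPM in DMSO, 7.78 and 9.44 after compound 4, 6.32 and 6.99 after compound 5, and 16.9 and 14.2 after compound 6, with log2 fold changes of -1.58, -1.95 and -0.74 (edgeR adjusted p = 5.2e-04, 9.66e-05 and 0.0321). DGAT2, the enzyme of the last step of triglyceride synthesis, was lower with compounds 4 (-0.87) and 5 (-1.88). The genes that were higher with compound 5 were P4HB, which encodes the partner subunit of the transfer protein, SURF4, MIA2, MIA3 and TFG, of the export path from the endoplasmic reticulum, and the lipase gene CES1. MIA3 had the largest of these changes, from 51.8 and 52.2 CPM in DMSO to 163 and 136 (log2 fold change 1.52, SE 0.18, adjusted p = 2.99e-04). P4HB did not pass with the block (0.0602).

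Genes for the remodelling of lipoproteins in plasma were lower where they passed. Of 15, 10 were tested, and 3 were lower with compound 4 (LIPG, LCAT and ABCA1), 6 with compound 5 (those and ANGPTL4, ANGPTL8 and PON1) and 1 with compound 6 (LCAT), and none was higher, beside 5.42%, 14.2% and 1.6% of all tested genes called lower. LCAT, which esterifies HDL cholesterol, was at 25 and 20.5 CPM in DMSO and between 11.5 and 15.3 in the treated samples (log2 fold changes -0.62, -0.91 and -0.84, edgeR adjusted p = 0.0258, 0.00221 and 0.0171). With the block, 1, 5 and 1 of them were called. LIPG had only 3 and 2 counts after compound 4 and 0 and 6 after compound 5, near the floor of 3 counts. The longest transcripts of LIPG and ABCA1 have 10441 and 10494 bases. They belong to the class over 10 kb, whose median was lower in compound 4 replicate 2 than in replicate 1. PON1, an HDL-bound esterase, fell by 2.20 on the log2 scale with compound 5 (SE 0.62, adjusted p = 0.0234), at 1.67 and 2.22 CPM in DMSO and 0.0917 and 0.707 with compound 5, the former under the floor of 3 counts.

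Among 12 genes of receptors and uptake, 11 were tested. The VLDL receptor gene VLDLR rose with compounds 5 and 6 (log2 fold changes 1.33 and 1.06, edgeR adjusted p = 8.18e-04 and 0.0155). Its CPM was 8.96 and 9.37 in DMSO, 11.4 and 11.9 after compound 4, 22.6 and 23.6 after compound 5, and 15.1 and 23 after compound 6. In all, 0, 3 and 2 genes of the list were higher with compounds 4, 5 and 6 (0, 3 and 1 with the block), beside 6.5%, 13.9% and 2.8% of all tested genes called higher.

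Transcription factors and coregulators of apolipoprotein genes, 25 in number and all tested, had medians of 0.03, -0.02 and -0.01. HNF4A, the nuclear receptor that drives many of these promoters in liver, was between 320 and 406 CPM in all samples and was not called (0.08, -0.16 and 0.02). NR0B2, which encodes the corepressor SHP, was higher with all compounds, at 76.5 and 70.4 CPM in DMSO, 148 and 166 after compound 4, 171 and 194 after compound 5, and 108 and 135 after compound 6 (log2 fold changes 1.09, 1.31 and 0.73, edgeR adjusted p = 0.00101, 1.55e-04 and 0.0159). NR1D1, which encodes the repressor REV-ERB alpha, rose with compound 5 from 15.9 and 12.5 to 65 and 61.5 CPM (2.16, adjusted p = 2.76e-05) and with compound 4 (0.69, adjusted p = 0.0148). The bile acid receptor gene NR1H4 fell with compound 4 (-0.91, adjusted p = 0.00508), and SREBF2, the gene of a sterol-regulated transcription factor, with compound 5 (-0.48, adjusted p = 0.00425). In all, 2 were higher and 1 lower for compound 4, 5 and 2 for compound 5, and 1 and 0 for compound 6, shares of the list that lie near the 11.9%, 28.1% and 4.4% of all tested genes called. With the block, 1 in place of 2 was lower with compound 5.

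**Figure D5:**
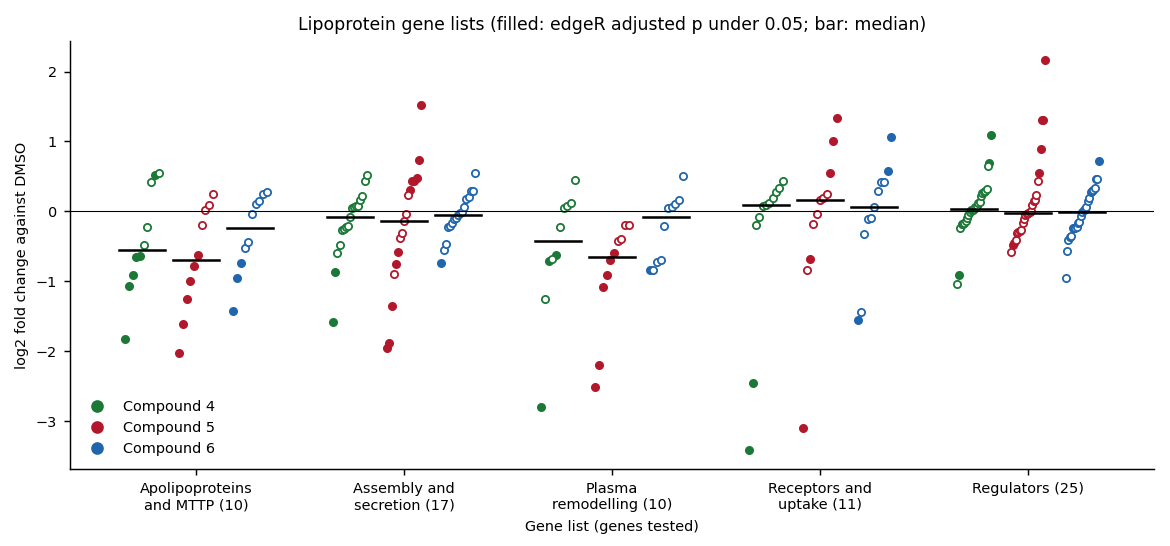
Log2 fold change against DMSO (vertical axis) of the tested genes of 5 lists (horizontal axis, number tested in brackets), one colour for each compound, filled where the edgeR adjusted p is under 0.05, with a bar at the list's median. The bars of the apolipoprotein and MTTP list lie at -0.56, -0.70 and -0.24, and those of the regulators at 0.03, -0.02 and -0.01.

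Of 14 other apolipoprotein genes, 9 were tested, and APOA4 with compound 4 and APOF with compound 5 were the only calls, beside 11.9% and 28.1% of all tested genes called with these compounds. With the replicate block 2 were lower with compound 5. APOF, which encodes a regulator of CETP, was at 7.68 and 6.25 CPM in DMSO and 2.29 and 2.98 with compound 5 (log2 fold change -1.38, SE 0.25, edgeR adjusted p = 0.00271). The medians were -0.01, -0.23 and -0.15.

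Of the 12 hepatocyte markers, 1 was higher and 5 lower with compound 4, 4 were lower with compound 5 and 2 with compound 6, beside 11.9%, 28.1% and 4.4% of all tested genes called. Their medians were -0.31, -0.22 and -0.32, and the replicate block left 4, 4 and 1 of them lower. The acute phase gene HP was lower with all compounds (log2 fold changes -1.49, -1.30 and -0.86, edgeR adjusted p = 0.00122, 8.05e-04 and 0.0278), and TTR was higher with compound 4 (0.66, adjusted p = 0.0365). ALB, the most abundant of them, was at 18490 and 16380 CPM in DMSO and between 12560 and 16020 in the treated samples and was not called (-0.32, -0.39 and -0.29). Of 5 bile duct markers, 3 were tested, with list medians of -0.09, 0.06 and -0.09. KRT19 was higher with all compounds (0.72, 0.56 and 0.85, edgeR adjusted p = 0.00967, 0.0154 and 0.0122), while SOX9 (-0.18, 0.06 and -0.09) and EPCAM (-0.09, -0.03 and -0.22) were not called. Of 8 markers of other liver cells, 4 were tested. With compound 4, PDGFRB (1.80, adjusted p = 0.00864), CD68 (0.80, adjusted p = 0.0079) and CD14 were higher, with compound 6 CD14 (adjusted p = 0.0476, and 0.0568 with the replicate block), and ACTA2 was lower with compound 5 (-1.20, adjusted p = 8.37e-04). CD14 was under the floor of 3 counts in DMSO, at 0.0985 and 0.164 CPM, against 0.941 and 1.25 after compound 4 and 0.938 and 0.988 after compound 6. The summed level of the 8 markers was 45.7 to 61.3 CPM in DMSO, 79.1 to 80.6 with compound 4, 47.7 to 52.5 with compound 5 and 68.2 to 72.9 with compound 6, so that compounds 4 and 6 lay above DMSO. Most of this sum was the single gene CD68. It stood at 38.5 and 27.2 CPM in DMSO, 56.3 and 57.7 after compound 4, and 50.6 and 47.3 after compound 6. The part of any change in cell state in the members' values was not tested.

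Among genes that averaged 10 CPM or more, AP2B1 and NF1 were of the 3 whose pattern over the 8 samples was most like that of APOB (Pearson r of log2 CPM 0.99 and 0.98), with longest transcripts of 5702 and 12425 bases. POC1A and TPI1 were of the 3 most like APOA1 (0.99 and 0.98). The points share groups and libraries, and no p-value is given.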

How the data were processed

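RNA was sequenced from strand-specific mRNA libraries of 8 samples. The authors checked the reads with FastQC 0.12.0, quantified transcripts with Salmon 1.5.0 on GENCODE and summed them to genes with tximeta, and their own tests used DESeq2 1.38.3. The values deposited by the authors are estimated counts per gene, given as whole numbers and not normalized. For replicate 1 of compounds 4 and 5 the labels name 2 merged sequencing indices. Gene positions came from GENCODE 29 (GRCh38), an earlier release than the one used for the counts.

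The tests were run with edgeR 4.0.16 and limma 3.58.1 under R 4.3.3. Libraries were scaled by TMM, genes were kept by filterByExpr, and 1 quasi-likelihood model of 4 groups was fitted to all 8 samples. CPM uses the TMM-scaled library size. The SE of a log2 fold change was taken as its size over the root of F, and adjusted p-values (Benjamini-Hochberg, over 13404 genes) are from edgeR unless DESeq2 1.42.0 is named. The procedure was also run on simulated counts that held no trend with transcript length. That run cannot speak to the length trend of these libraries, and no value from it is given. The 95% intervals are those of the edgeR fit and include the spread between samples. Floors cover counting error only, and 3 counts stood for 0.234 to 0.312 CPM.

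The members and lists were chosen with earlier results of these data known. Genes named besides the members are, for each list and compound, the called gene with the highest and lowest change at a mean of at least 1 CPM, and, for APOB and APOA1, the 3 genes of most similar pattern (mean of at least 10 CPM). Other named genes were chosen after their values were seen. Some genes that the rule for lists and patterns names are not reported here.

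The labels give the same day to same-numbered samples, which is why the replicate number served as a block. Across genes, the deviations from the group mean had correlations of -0.083 to 0.16 between same-numbered samples. The alternatives were RLE, upper-quartile and library-size scaling, DESeq2, no filter beyond 1 count over all samples, a stricter filter of 10 counts in each sample, the block, only the groups compared, each library left out (a lone sample is then assumed to vary like the other groups) and, chosen after seeing the data, a loess correction for transcript length, with and without the block. An exact test of 2 samples against 2 cannot pass the cutoff and was not run. Cytotoxicity, cell cycle and docking data were not analysed here.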

Additional observations from a re-analysis of the deposited data

How the results depend on the processing

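The changes of all members against DMSO and between compounds 4 and 6, and of the called members in the other comparisons, were recomputed under the alternatives other than left-out libraries, which gave 453 values. In 418 of them direction and call were as reported, in 22 a value newly passed the cutoff, in 6 a call was lost and in 7 the sign changed, always between values that were not called.

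Of the 10 genes, 3 were called with compound 6, against 5 in DESeq2, 5 without a filter on low counts, 5 with length correction and the replicate block together, and 1 with the replicate block alone. The block ended the calls of APOA1 and APOA5 with compound 6 and changed no other member's call. Without a filter, 3 members were called between compounds 4 and 6 in place of 0, and 6 in place of 4 for compound 5 against 4. All genes called with compound 6 numbered 590, against 1441 without a filter, 1064 with length correction and 1129 with length correction and block. The filter changes which genes share the estimate of the spread, and for the other shifts the cause was not tested. APOC3 with compound 4 went from an edgeR adjusted p of 0.00113 to 5.87e-25 without a filter, at a log2 fold change of -1.82 in both. A member's pass without a filter thus rests on that other estimate of the spread and is not further support.

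With compound 5, APOA2 changed sign under upper-quartile scaling (-0.0638) and library size alone (-0.0809), as APOE did with library size alone (-0.0136) and APOC1 after length correction (0.0277, and 0.0271 with the block). Between compounds 4 and 6, APOA1 gave -0.0120 after length correction and -0.0109 with the block added. For compound 5 the median of all genes was -0.12 under upper-quartile scaling and -0.14 with library size alone, and the share of calls that were higher was 49.3% with TMM and 56.8% in DESeq2. The median of the regulator list with compound 5 went from -0.02 to -0.13 with library size alone.

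Libraries were left out 1 at a time over the same 13404 genes. All genes called ranged from 335 to 1703 for compound 4, from 1680 to 4519 for compound 5 and from 1 to 1096 for compound 6, the lowest in the first and last case without DMSO replicate 2 and in the other without compound 5 replicate 1. Members called ranged from 2 to 7, from 4 to 6 and from 0 to 4. Between compounds they ranged from 0 to 6 for 5 against 4, from 0 to 3 for 5 against 6 and from 0 to 2 for 4 against 6. Changes of sign arose for APOB with compound 4 (-1.19 to 0.00304), for APOA2 and APOE with compound 5 (-0.0669 to 0.15 and -0.0748 to 0.27) and for APOM with compound 6 (-0.18 to 0.12). Between compounds 4 and 6 they arose for APOH (-0.44 to 0.16), APOA5 (-0.43 to 0.26) and APOA1 (-0.15 to 0.29), none of them called with all libraries.

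With 2 samples a group, the loss of 1 library can end a call, and depth limits levels under 0.234 to 0.312 CPM, the value of 3 counts.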
